A study of Homo sapiens with 10 samples.

Results

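The genes described here encode the heterogeneous nuclear ribonucleoproteins (hnRNPs) and the serine/arginine-rich (SR) splicing factors. They were chosen by symbol, as names starting with HNRNP, or with SRSF followed by digits, without read-through names and pseudogenes. The rule found 37 of the 39472 gene symbols in the count files, 25 hnRNP genes and 12 SR genes. The cells were HEK 293T, an established human kidney line, and carried FLAG-tagged eIF4A. For 1 h they were given DMSO alone as vehicle, silvestrol at 20 nM, or CR-1-31-B at 20 nM, and were then crosslinked with ultraviolet light at 254 nm and 400 mJ/cm2. RNA crosslinked to the tagged protein was recovered by eCLIP with an anti-FLAG antibody, with 3 libraries for each treatment. A single input library, number 2, was made without antibody, and its label names no treatment. The labels give neither the promoter of the tagged gene nor whether the cells were 1 clone. They also do not say that the numbered libraries came from separate cultures, so p-values measure the spread between libraries, which may be technical.

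hnRNPs and SR proteins bind nascent transcripts and, often in opposition, set which exons are kept. SR proteins typically promote exon inclusion from exonic enhancers, whereas many hnRNPs repress exons, and members of both families also act in mRNA export, stability and translation. Many of these genes limit their own output through alternative exons. eIF4A is the RNA helicase of the cap-binding complex eIF4F, which prepares mRNA leaders for the ribosome. Silvestrol, a natural product, and CR-1-31-B, a synthetic relative, are rocaglates, which clamp eIF4A onto purine-rich RNA. The results below are therefore about eIF4A contacts with the mRNAs of these splicing factors, not about splicing.

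Because purine-rich leader sequence is what rocaglate-bound eIF4A is known for, bases near the RefSeq start of 11 genes are printed. These are the 8 genes with the highest and the 3 with the lowest leader fold changes for both rocaglates. The 8 include every gene whose leader rose for both in at least 1 of the fits described here, and also HNRNPH2 and SRSF12, whose leaders rose in none. Each is 30 bases from within the first 50 after the RefSeq gene start (GRCh38.p14), 5′ to 3′, with the longest purine run in capitals. HNRNPA3 lies at chr2:177212794-177212823 on the plus strand, HNRNPH2 at chrX:101408226-101408255 (plus), HNRNPD at chr4:82373942-82373971 (minus), SRSF3 at chr6:36594378-36594407 (plus) and HNRNPLL at chr2:38602879-38602908 (minus). SRSF12 lies at chr6:89118042-89118071 (minus), HNRNPU at chr1:244864514-244864543 (minus) and HNRNPC at chr14:21269413-21269442 (minus). SRSF6 lies at chr20:43457916-43457945 (plus), SRSF4 at chr1:29181864-29181893 (minus) and SRSF5 at chr14:69767162-69767191 (plus).
HNRNPA3: ctcaaaatGGAGGtaaaaccgccgcccggt
HNRNPH2: gcttacgtgagcAGAAGtagttctggtcgt
HNRNPD: cgcggcggcgccattaaagcGAGGAGGAGG
SRSF3: gccgggtgagtGAGAGAGttggttggtgtt
HNRNPLL: gggcagggagcggagacGGAGGAGGAGGAG
SRSF12: AGGctggcgccgcgctgcgccccctctgcg
HNRNPU: GAGGAcgttgcgtgctcgctcgcgccaggc
HNRNPC: AGAGGAGActcgggggccattttgtgaaga
SRSF6: cgcccctgtggtgtGAGGcgcgtgttcggg
SRSF4: cgcgtacgtcgccGGGGttcggctgcgtcc
SRSF5: gacgagttaagtcctggtctgcgtGGAGGt
Among the 8 highest, the runs are 13 bases in HNRNPLL, 10 in HNRNPD, 8 in HNRNPC and 7 in SRSF3, but only 5 in HNRNPA3, HNRNPH2 and HNRNPU and 3 in SRSF12. Among the 3 lowest the runs are 5 in SRSF5 and 4 in SRSF6 and SRSF4, so within these 50 bases short runs stand at both ends. The HNRNPD and HNRNPLL runs end at the edge of the 50-base window and may be longer.

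Purine runs were found in a smaller share of these genes than of all genes, a difference that was not tested. RefSeq held a start for 34 of the 37 genes, and a run of at least 6 purines occurred in 13 of them (38.2%), against 46.7% of the 27305 genes in the table. Among genes with tested leaders it was 11 of 29 (37.9%), against 43.7% of 5657. The median leader log2 fold change for both rocaglates was 0.69 for the 11 with such a run and 0.38 for the 18 without. Over all tested leaders these medians were 0.49 and 0.29, and neither difference was tested. HNRNPK, the poly(C)-binding hnRNP, opens with a run of 15 purines, and its leader counts did not pass the test described below. The letters GAGAGA were found on the sense strand in 1 of these genes, SRSF3 (2.9%, against 2.6% of all genes). AGAGAG, which overlaps it, was found in the same gene (2.9% against 2.8%). Across the 31 leaders tested, the purine percentage of the GENCODE 29 leader and the log2 fold change for both rocaglates had a Spearman correlation of 0.19. Over 6789 tested leaders of all genes it was 0.25. For the longest purine run in the same leaders, the Spearman correlation was 0.03 over the 31 and 0.16 over the 6789. These points share libraries and base composition.

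The files give read counts for the 5′ leader, coding sequence (CDS) and 3′ UTR of each gene. Total counts were 858733 to 1804732 in the 9 anti-FLAG libraries and 2193699 in the input. Leaders held 20.7% to 24.1% of all counts in the DMSO libraries and 28.5% to 35.0% in 5 of the 6 rocaglate libraries. CR-1-31-B library 3 stood apart at 22.8%, inside the DMSO range. Of 7 marker genes for the line, VIM had 73 to 503 counts per library, KRT18 20 to 72, INA 11 to 51 and PAX2 13 to 37. NEFL had 2 to 42, NEFM 1 to 23 and LHX1 0 to 23, so several were low. The erythroid, hepatic and leukocyte markers HBB, ALB and PTPRC had at most 2 counts, but the fibroblast collagen COL1A1 had 24 to 78 and the glial marker GFAP 1 to 13, and their part in the results was not tested. Values below are CPM, counts relative to the library total. These values were scaled by TMM between the anti-FLAG libraries, except in the comparison of DMSO with input, which used library totals alone. They are not per length, so levels are not compared between genes. They are relative to all counts, and mRNA abundance after each treatment was not measured, so more contact per mRNA and more mRNA cannot be told apart.

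Of the 111 leader, CDS and 3′ UTR features of the 37 genes, 87 had enough counts to be tested: 31 leaders, 29 CDS and 27 3′ UTRs. HNRNPCL2, HNRNPCL3 and HNRNPCL4 had 0 counts in these 3 parts in every library, and HNRNPCL1 had 2 CDS counts in CR-1-31-B library 1 alone. HNRNPUL2 had 0 leader counts throughout, although its 3′ UTR had 46 to 133. HNRNPA1, a major hnRNP that represses exons, had 1 to 22 leader counts per anti-FLAG library. Its many processed copies can take or discard reads, and how multiply mapping reads were counted is not given in the sources used here. HNRNPH2 was counted in its leader alone, which it shares with a read-through transcript in GENCODE 29, so its values are uncertain.

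In vehicle-treated cells, eIF4A eCLIP counts from these mRNAs lay in the leader more than input counts did. Of 25 leaders with at least 10 counts in the input or on average in DMSO, 18 were at least 2-fold above input in all 3 DMSO libraries, where 55.8% of 6173 leaders of all genes were. None was 2-fold below (0.778% of all leaders). With 1 input library no test was made. Scaled to leader, CDS and 3′ UTR counts alone, 16 of the 25 were above (42.7% of all leaders). With total scaling, the median log2 ratio of DMSO to input was 2.64 for these leaders and 1.98 for all leaders.

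HNRNPAB, a relative of HNRNPD that binds single-stranded nucleic acid, had the highest ratio. Its leader stood at 28.3 CPM in the input (95% exact Poisson interval 21.7 to 36.2, counting error only) and 394 ± 44.4 (SD, n = 3) in DMSO, a ratio of 13.9. SRSF9 followed at 10.7, HNRNPD at 8.46 and SRSF1, the founding SR protein, at 8.28. HNRNPA1 had 0 leader counts in the input and was at least 7.07-fold higher in DMSO, with the input set to a floor of 3 counts. A group of leaders stayed near the input instead. The ratio was 1.27 for HNRNPC, 1.24 for HNRNPH1, 1.17 for SRSF11, 1.11 for SRSF5 and 1.01 for SRSF10.

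Coding sequences and 3′ UTRs mostly lay near the input. Of 30 CDS, HNRNPA3 (2.34-fold) and SRSF9 (3.94-fold) were above by the same rule, which 5.77% of all CDS met, and SRSF12 (0.213-fold) was below, as were 3.47%. Of 29 3′ UTRs, HNRNPM (2.90-fold), HNRNPUL2 (2.62-fold) and SRSF5 (4.07-fold) were above (2.35% of all 3′ UTRs) and SRSF12 (0.241-fold) was below (2.55%). Scaled to leader, CDS and 3′ UTR counts alone, the CDS of SRSF9 was still above (2.82-fold, 2.58% of all CDS). So was the 3′ UTR of SRSF5 (2.92-fold, 0.911% of all 3′ UTRs), whereas HNRNPA3 (1.69), HNRNPM (2.10) and HNRNPUL2 (1.88) no longer met the rule. The SRSF12 CDS was again below, as were 9.79% of all CDS. The HNRNPA1 3′ UTR (0.360) joined that of SRSF12 below, where 6.81% of all 3′ UTRs were. SRSF5 thus had its excess over input in the 3′ UTR rather than in the leader.

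**Figure D1:**
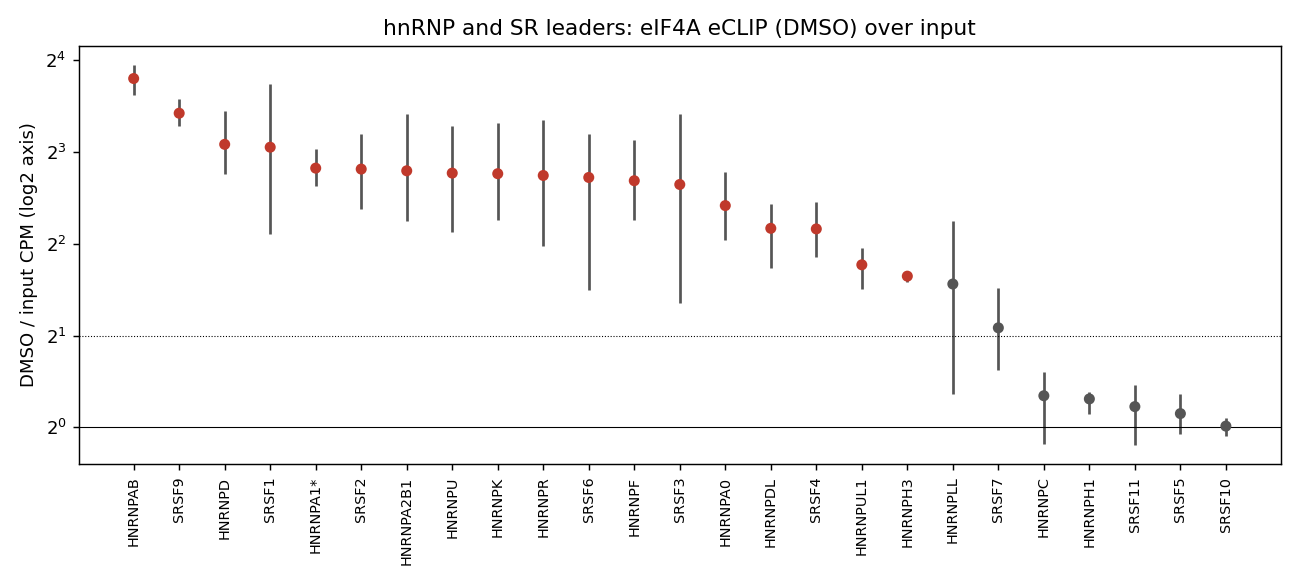
Ratio of DMSO to input CPM (log2 axis) for the 25 hnRNP and SR leaders with enough counts; points are the mean of 3 DMSO libraries over the input library, bars span the 3 libraries, red marks the 18 leaders at least 2-fold above in all 3, and the asterisk marks HNRNPA1, whose ratio is a lower bound. HNRNPAB and SRSF9 lead, and HNRNPC, HNRNPH1, SRSF11, SRSF5 and SRSF10 lie near 1.

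With rocaglates, the leader of HNRNPD rose, and it was the only feature of these 37 genes to pass the test for either compound. HNRNPD, also called AUF1, binds AU-rich elements and regulates mRNA decay. Its leader counts were 410, 255 and 255 in DMSO, 2498, 656 and 742 under silvestrol and 1869, 1327 and 601 under CR-1-31-B. In CPM the leader stood at 401, 271 and 292 in DMSO, 1505, 746 and 945 under silvestrol and 1236, 1148 and 696 under CR-1-31-B. Every rocaglate library lay above every DMSO library, and the silvestrol libraries differed among themselves by more than the DMSO libraries did. The log2 fold change was 1.73 (SE 0.36) for silvestrol, with an adjusted p of 0.0413 by edgeR's quasi-likelihood test. For CR-1-31-B it was 1.68 (SE 0.36, edgeR adjusted p = 0.0475), and for both rocaglates together 1.70 (SE 0.33, edgeR adjusted p = 0.0213).

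These calls sat close to the threshold of 0.05. Among all 24713 features tested, 0.255% were called for silvestrol, 0.291% for CR-1-31-B and 0.49% for both. Among leaders alone the shares called higher were 0.857%, 0.8% and 1.39%. Without any 1 of the DMSO libraries, or without silvestrol library 1 or CR-1-31-B library 1, HNRNPD was no longer called for both rocaglates, with edgeR adjusted p of 0.0612 to 0.185 and log2 fold changes of 1.54 to 1.95. The calls for silvestrol alone and for CR-1-31-B alone were each lost in 6 of the 9 fits that leave out a library. The other parts of HNRNPD were not called: the log2 fold change for both rocaglates was 0.57 (SE 0.32) in its CDS and -0.49 (SE 0.40) in its 3′ UTR.

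Libraries with the same number deviated together, and with that number as a block in the fit more leaders passed. For both rocaglates 5 leaders then rose: HNRNPD, SRSF3, HNRNPLL, HNRNPC and HNRNPU, where 5.38% of all leaders did. For silvestrol 4 rose (HNRNPC, HNRNPD, SRSF3 and HNRNPLL; 3.71% of all leaders), and for CR-1-31-B 5 (HNRNPA3, HNRNPU, HNRNPD, SRSF3 and HNRNPLL; 3.59%). In the fit without the block, the edgeR adjusted p for both rocaglates was 0.067 for HNRNPLL, 0.0845 for SRSF3, 0.176 for HNRNPC and 0.205 for HNRNPU.

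SRSF3, the smallest SR protein and an export adaptor, stood at 121, 31.8 and 66.4 leader CPM in DMSO, 381, 151 and 329 under silvestrol and 273, 141 and 117 under CR-1-31-B. 1 CR-1-31-B library lay below the highest DMSO library, so the groups overlapped. The log2 fold change for both was 1.62 (SE 0.42), and 1.71 with the block (edgeR adjusted p = 0.00123).
HNRNPLL, which controls CD45 splicing in lymphocytes, stood at 43.1, 12.7 and 26.3 leader CPM in DMSO, 119, 73.9 and 77.7 under silvestrol and 85.3, 79.6 and 60.3 under CR-1-31-B. The groups did not overlap. The log2 fold change was 1.58 (SE 0.39), and 1.64 with the block (edgeR adjusted p = 0.00769). Its CDS was also above DMSO in all 6 rocaglate libraries (log2 1.33, SE 0.43) and was not called.

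HNRNPC, which binds uridine tracts and packages nascent RNA, stood at 199.7, 202 and 119 leader CPM in DMSO, 478, 403 and 284 under silvestrol and 326, 342 and 254 under CR-1-31-B. All rocaglate libraries were above DMSO (log2 0.99, SE 0.31; 1.01 with the block, edgeR adjusted p = 0.0133). Its 3′ UTR lay the other way, below DMSO in all 6 rocaglate libraries, with a log2 fold change of -0.70 (SE 0.28) that did not pass. HNRNPU, a scaffold protein that binds chromatin-associated RNA, stood at 228, 111 and 152 leader CPM in DMSO, 420, 174 and 301 under silvestrol and 458, 394 and 302 under CR-1-31-B. 1 silvestrol library lay inside the DMSO range. The log2 fold change was 1.05 (SE 0.34), and 1.07 with the block (edgeR adjusted p = 0.0173).

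**Figure D2:**
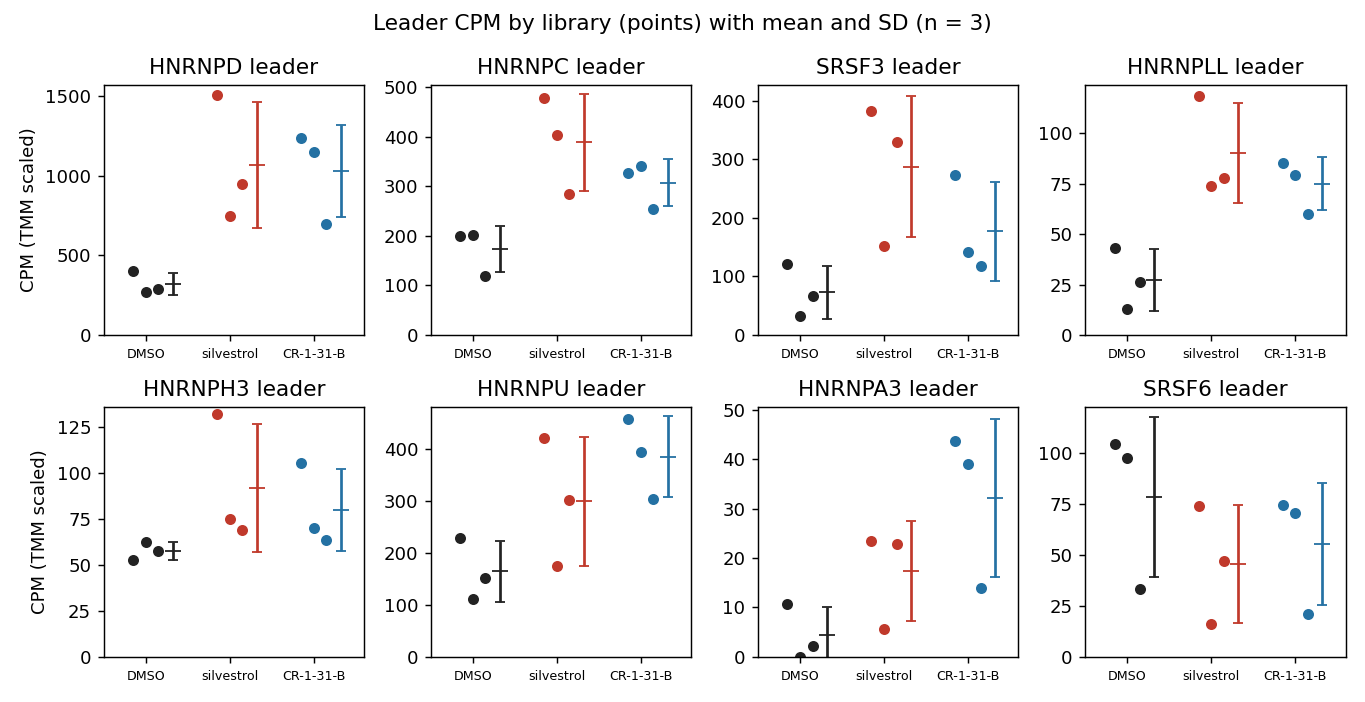
Leader CPM (TMM scaled) of 8 genes in each DMSO, silvestrol and CR-1-31-B library (points), with the mean and SD of 3 libraries beside them. HNRNPD, HNRNPC, HNRNPLL and HNRNPH3 do not overlap between DMSO and rocaglates, whereas SRSF6, the leader with the lowest fold change, does.

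HNRNPA3 had the highest leader fold change for both rocaglates (log2 2.39, SE 0.75), on 11, 0 and 2 counts in DMSO and 5 to 66 with rocaglates. It was not called, except in the fit without the filter on low counts and, for CR-1-31-B alone, also with the block. In GENCODE 29 its leader overlaps a microRNA gene on the same strand and a gene on the other, and whether strand was used in counting is not given in the sources used here. HNRNPH2 (2.17, SE 0.89) was also high on few counts. At the other end were SRSF6 (-0.62, SE 0.44), SRSF4 (-0.45, SE 0.34) and SRSF5 (-0.44, SE 0.33), none of them called.

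Taken as a list, the median leader log2 fold change for both rocaglates was 0.58, against 0.36 for all 7122 leaders tested. It was 0.66 for the 19 hnRNP leaders and 0.31 for the 12 SR leaders, and the difference between the families was not tested. By compound it was 0.57 for silvestrol (all leaders 0.40) and 0.65 for CR-1-31-B (all leaders 0.35). These medians leaned on single libraries. Without silvestrol library 1 the median was 0.11 for silvestrol, below the 0.33 of all leaders, and 0.35 for both rocaglates, near the 0.32 of all leaders. Without DMSO library 3 it was 0.31 for silvestrol (all leaders 0.37), and without CR-1-31-B library 1 it was 0.41 for CR-1-31-B (all leaders 0.30). Leaders above DMSO in all 6 rocaglate libraries were HNRNPC, HNRNPD, HNRNPH3 and HNRNPLL, 4 of 31, where 8.4% of all leaders were, and none was below in all 6 (0.8%).

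Coding sequences and 3′ UTRs showed smaller shifts. No CDS or 3′ UTR passed without the block; for both rocaglates an unadjusted p under 0.05 in edgeR was reached by 5 of 29 CDS (8.25% of all CDS) and by 3 of 27 3′ UTRs (4.51% of all 3′ UTRs). The median log2 fold change was -0.10 over 29 CDS (all CDS -0.09) and -0.44 over 27 3′ UTRs (all 3′ UTRs -0.27). Leaving out 1 library moved the CDS median between -0.21 and 0.13, with a positive sign when either DMSO library 1 or CR-1-31-B library 2 was left out. The 3′ UTR median ranged from -0.56 to -0.27, nearest 0 in the same pair of fits (-0.27 and -0.29). Above DMSO in all 6 rocaglate libraries were the CDS of HNRNPA0, HNRNPLL and HNRNPUL1 (2.63% of all CDS), and below were those of HNRNPK and SRSF11 (2.92%). No 3′ UTR was above (0.462%), and those of HNRNPC, SRSF5 and SRSF7 were below (3.62%).

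The CDS of HNRNPK stood at 304, 232 and 237 CPM in DMSO, 143, 125 and 148 under silvestrol and 171, 63.1 and 153 under CR-1-31-B. It fell with the block, the only feature of these genes to do so (log2 -0.98, edgeR adjusted p = 0.0282; 0.226% of all CDS fell). Without the block the log2 fold change was -0.95 (SE 0.31, edgeR adjusted p = 0.203).

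**Figure D3:**
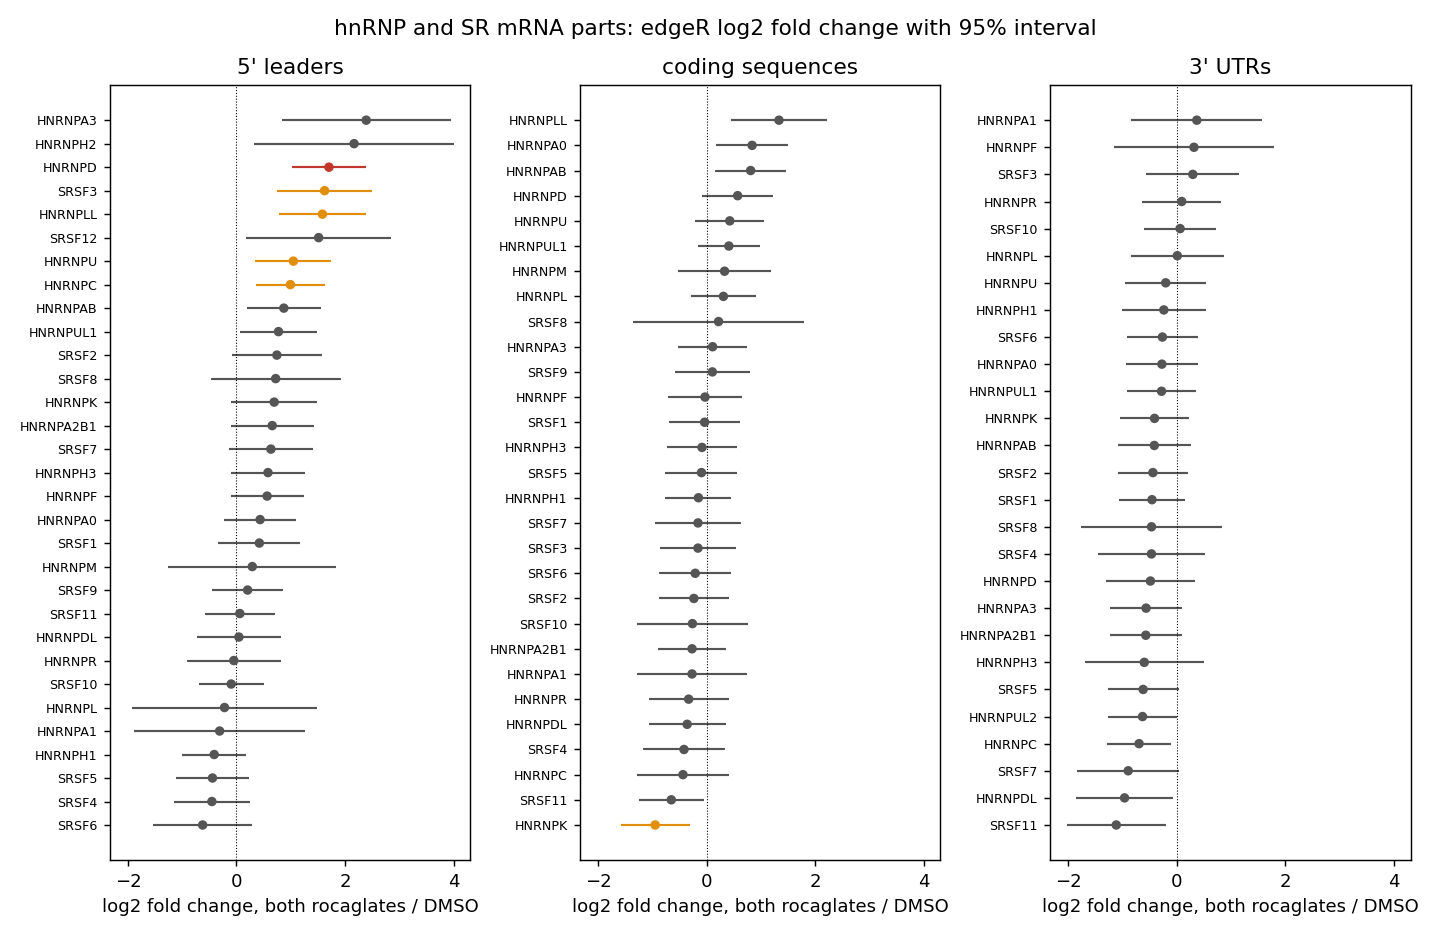
edgeR log2 fold change of both rocaglates over DMSO with its 95% interval, for the 31 leaders, 29 CDS and 27 3′ UTRs tested; red is called without the block (HNRNPD leader), orange only with the replicate block (SRSF3, HNRNPLL, HNRNPU and HNRNPC leaders and HNRNPK CDS). Leaders extend furthest to the right, and most 3′ UTRs lie left of 0.

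The share of a gene's own mRNA counts that lies in the leader needs no scaling between libraries. Over the 37 genes summed it was 20.2% in the input, 36.7% ± 3.03 (SD, n = 3) in DMSO, 49.9% ± 4.40 under silvestrol and 48.3% ± 6.80 under CR-1-31-B. Over all genes it was 12.9%, 27.9%, 37.9% and 36.2%. Each rocaglate library lay above the highest DMSO library (39.5%), the lowest being CR-1-31-B library 3 at 40.8% (exact Clopper-Pearson 95% interval 39.8 to 41.7, counting error only). The same interval for DMSO library 2, the highest, was 38.4 to 40.6, so these intervals overlapped. The mean of the rocaglate groups was 12.4 percentage points above DMSO, 14.3 without CR-1-31-B library 3, and 10.2 without HNRNPD, the gene with the most counts over the 9 anti-FLAG libraries. Without HNRNPD the groups no longer separated, with CR-1-31-B library 3 at 37.75% and DMSO library 2 at 38.3%.

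Within single genes, all 6 rocaglate libraries were above DMSO for HNRNPA2B1, HNRNPC, HNRNPD, HNRNPK, SRSF3 and SRSF11, 6 of the 29 genes with enough counts for a ratio, where 9.33% of 6160 genes were. None of the 29 was below DMSO in all 6 (0.487% of all). In GENCODE 29 the HNRNPA2B1 leader overlaps CBX3 on the opposite strand, and strand use in counting is not given in the sources used here. HNRNPC moved from 45.9% ± 4.65 (SD, n = 3) in DMSO to 76.0% ± 3.97 under silvestrol and 68.3% ± 3.67 under CR-1-31-B. HNRNPD moved from 57.9% ± 5.43 to 76.3% ± 6.63 and 76.7% ± 3.88. SRSF3 stood at 39.2% ± 3.62, 68.7% ± 14.1 and 60.7% ± 13.2, and HNRNPK at 28.3% ± 3.27, 49.0% ± 13.5 and 53.0% ± 17.9. HNRNPA0, by contrast, differed by less than the spread between libraries, at 51.4% ± 3.01, 53.1% ± 3.26 and 49.3% ± 2.81.

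The test of this ratio, limma on log2 of leader over CDS and 3′ UTR counts, called none of the 29 genes that could be fitted. The lowest adjusted p for both rocaglates was 0.128, for HNRNPA3, and 5 of the 29 genes had an unadjusted p under 0.05, as did 17% of all genes fitted. For HNRNPC the log2 ratio was higher by 1.63 (SE 0.42, limma adjusted p = 0.133). The fit called 0.0649% of 6160 genes for both rocaglates and 0% for silvestrol, for CR-1-31-B and between the compounds, so its lack of calls does not show that ratios were alike. Other forms of this test, tried after this result was known, called 0 to 4 of these genes for both rocaglates and are given with the alternatives.

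**Figure D4:**
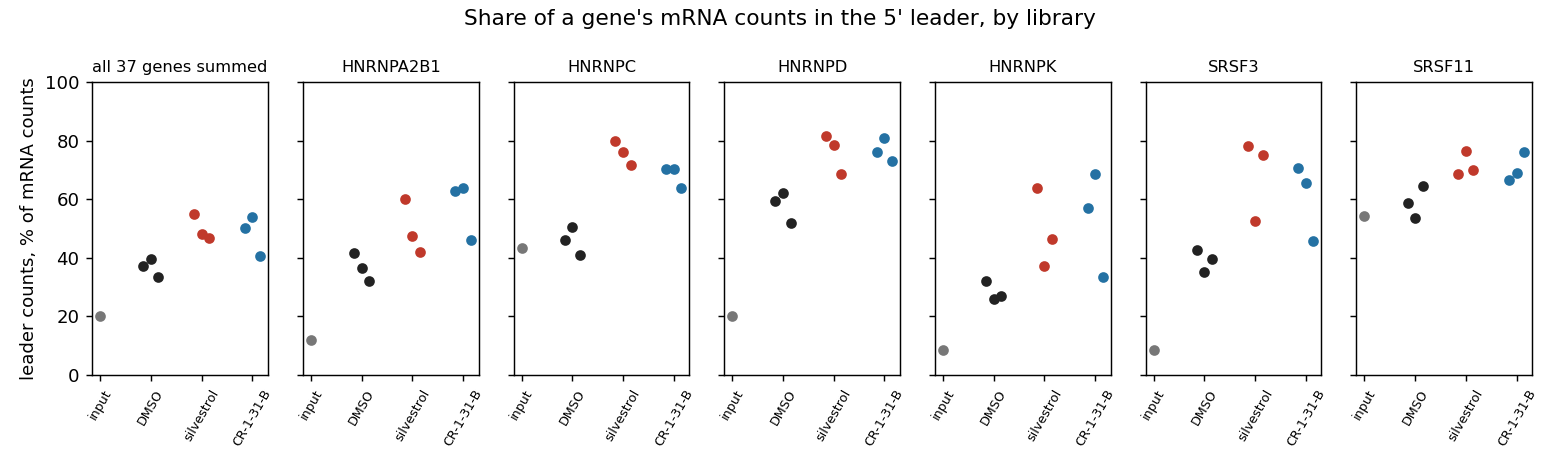
Leader counts as a percentage of leader, CDS and 3′ UTR counts in each library, for the 37 genes summed and for the 6 genes whose rocaglate libraries all lie above DMSO; points are single libraries of input, DMSO, silvestrol and CR-1-31-B. Summed over the 37 genes the share was 20.2% in the input and 36.7%, 49.9% and 48.3% on average in the other groups.

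Silvestrol and CR-1-31-B were compared at the same dose and time over the 87 features, with p-values adjusted over all 24713. edgeR called none of the 87 and 0% of all features; 1 of the 87, the HNRNPDL 3′ UTR, had an unadjusted p under 0.05 (2.46% of all features), and DESeq2 and limma voom also called none. The interval still allows sizeable differences. For the HNRNPD leader CR-1-31-B minus silvestrol was -0.05 log2 (95% interval -0.78 to 0.67). For SRSF3 it was -0.69 (-1.61 to 0.22), for HNRNPC -0.34 (-1.04 to 0.36) and for HNRNPU 0.36 (-0.40 to 1.13).

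Among 42 other splicing factors (spliceosome subunits, regulators and their kinases and importers), 4 of 37 tested leaders rose for both rocaglates (1.39% of all leaders) and none of their CDS or 3′ UTRs did. They were SYNCRIP, an hnRNP-like protein named hnRNP Q (log2 1.46, SE 0.33, edgeR adjusted p = 0.0498), EWSR1 (1.49, SE 0.34), SRRM2 (1.45, SE 0.32) and SON, which with SRRM2 forms nuclear speckles. SON had 0.382 ± 0.661 leader CPM in DMSO (SD, n = 3) against 18.1 ± 15.1 under silvestrol and 31.3 ± 20.0 under CR-1-31-B. For CR-1-31-B alone SON passed, and SYNCRIP, EWSR1 and SRRM2 had edgeR adjusted p of 0.371, 0.271 and 0.121. For silvestrol alone SRRM2 did not pass (edgeR adjusted p = 0.0591). The median leader log2 fold change of this list was 0.06.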

How the data were processed

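The deposited files hold raw read counts per gene symbol and class (5′ leader, CDS, 3′ UTR and 4 others, per the file headers), 1 file per library. The submitters' processing notes name cutadapt for trimming and Bowtie 1.1 for alignment. Build, annotation, duplicate handling, strand use and counting rule are not given in the sources used here. 1 line per file names no gene and was left out. All classes were fitted together in edgeR 4.0.16 (R 4.3.3) over the 9 anti-FLAG libraries, with filterByExpr, TMM scaling and the quasi-likelihood test, and Benjamini-Hochberg adjustment over 24713 features (threshold 0.05). limma 3.58.1 tested log2 leader to body ratios with a pseudocount of 0.5. Input comparisons used total-scaled CPM. Scripts were tested on simulated data with planted leader changes, on which the ratio test over all its genes called none of them, so that its lack of calls on the real data carries little weight.

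Same-numbered libraries deviated together (9 pairs, r 0.102 to 0.263; other pairs -0.203 to 0.0163), so the blocked fit is given where it changes a call. No replicates were alike within sampling noise. Named genes were those called, those with non-overlapping leaders, and the extremes and most counted of each class. The genes and lists were chosen with earlier results of these data known. Alternatives included other scalings, filters, DESeq2 1.42.0 and leaving out each library.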

Additional observations from a re-analysis of the deposited data

How the results depend on the processing

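The number of hnRNP and SR features called was 1 for silvestrol, for CR-1-31-B and for both rocaglates. Without the filter it was 3, 2 and 4 (0.324%, 0.339% and 0.482% of all features), with DESeq2 4, 3 and 5 (1.25%, 1.36% and 2.15%), and with the replicate block 4, 5 and 6 (1.28%, 1.48% and 2.04%). With limma voom it was 2 for silvestrol and 3 for both (0.299% and 0.429%), and with upper-quartile factors 0 for CR-1-31-B, where HNRNPD had an adjusted p of 0.0519 in edgeR. Leaving out 1 library gave 0 to 2 for silvestrol, 0 to 1 for CR-1-31-B and 0 to 3 for both, and 4 to 100, 0 to 226 and 7 to 287 of all features. HNRNPD was lost for silvestrol without any 1 DMSO library, silvestrol 1 or 3 or CR-1-31-B 1 (highest edgeR adjusted p 0.341). It was lost for CR-1-31-B without any 1 DMSO library, silvestrol 3 or CR-1-31-B 1 or 2 (highest 0.251). Its log2 fold change stayed between 1.39 and 1.99 in these fits. The causes were not tested. No setting called an hnRNP or SR feature between the compounds. Of all features, 7 were called there without the filter and 1 with the block.

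The leader to body test called 0 of these genes as reported, with a pseudocount of 2, with CDS alone as the body, with the replicate block and without each library. After that was known, 3 further fits were tried. edgeR's diffSpliceDGE called 0 of the 29 genes for each contrast. limma on genes with means of at least 20 leader and 20 body counts called 2 for both rocaglates (HNRNPA3 and HNRNPC; 3.27% of 3482 genes) and 0 for each compound. With means of at least 50 it called 4 for both (HNRNPC, SRSF3, HNRNPD and HNRNPK; 19.1% of 1117 genes), 2 for silvestrol (HNRNPC and SRSF3; 14.2%) and 0 for CR-1-31-B (6.18%). The answer thus depends on the minimum, which was chosen after seeing the data. Leaders above input numbered 14 of 25 at 3-fold (39.8% of all leaders), 17 of 23 with a minimum of 30 counts (67.4%) and 17 of 24, 21 of 27 and 21 of 28 without DMSO library 1, 2 or 3 (60.7%, 63.7% and 62.8%).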

Other observations

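Counts in the class the file headers name transcript were enough to test for SRSF3, SRSF5, SRSF6 and SRSF7, and edgeR called none of them. SRSF5 had 24, 17 and 9 such counts in DMSO, 17, 15 and 7 with silvestrol and 7, 5 and 9 with CR-1-31-B, with an edgeR adjusted p of 0.629 for both rocaglates. SRSF3 had 24, 11 and 15 in DMSO, 15, 32 and 11 with silvestrol and 24, 21 and 21 with CR-1-31-B. Which transcripts this class holds is not given in the sources used here.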
